A study of Homo sapiens with 15 samples.

Results

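Expression of 9 structural genes of the photoreceptor outer segment and of the matrix around it, PRPH2, ROM1, RP1, PROM1, CDHR1, EYS, IMPG1, IMPG2 and CRB1, was followed from human induced pluripotent stem cells (hiPSCs) through retinal organoids (ROs) to cultured induced Müller glial cells (iMGCs). The genes were picked by symbol for their known roles, with earlier results of these data known. All 9 were found among the 19684 genes of the tables. Bulk poly(A) RNA-seq was performed on 15 libraries in 5 groups of 3, all made from the wild-type BC1-GFP hiPSC line: undifferentiated hiPSCs, neural retina (NR) isolated from ROs at differentiation day 70 (D70-ROs) or day 150 (D150-ROs), and iMGCs grown from dissociated NR of D150-ROs and collected on the fifth day of passage 1 (P1) or passage 5 (P5). The comparisons asked when during organoid development these genes were transcribed and what remained of them in the expanded cells.

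A photoreceptor captures light in its outer segment, a modified primary cilium packed with membrane discs, which is built on an axoneme of microtubules and renewed throughout life from its base. PRPH2 and ROM1 are tetraspanins that shape the rims of the discs, RP1 binds the axonemal microtubules, and PROM1 and CDHR1 are membrane proteins of the newly forming discs at the base. EYS is a secreted protein of the region around the connecting cilium, IMPG1 and IMPG2 are proteoglycans of the interphotoreceptor matrix that surrounds the outer segments, and CRB1 is an apical polarity protein of photoreceptors, Müller glia and retinal progenitors. Mutations in each of the 9 genes are known in inherited retinal disease.

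The depth ranged from 11349600 (D70-RO replicate 2) to 20398755 counts per library, with a median of 17194154. Levels are given as FPKM, the fragments of a gene scaled by its transcript length and by the size of the library, which may be compared between genes. Fold changes were fitted to the counts, and a gene was called when its fold change was at least 2 and its Benjamini-Hochberg adjusted p was under 0.05 over all genes tested in that comparison. The study's methods give an independent experiment for each library of a group, whereas the series' design text gives fewer of them than libraries for hiPSCs and ROs, so there the p-values measure only the spread between these libraries, which may be technical in part. The labelled cell types were checked against markers. Photoreceptor genes were abundant in D150-ROs (RCVRN 272 ± 13.3, CRX 142 ± 7.04 and NRL 211 ± 29.3 FPKM, mean ± SD, n = 3). In the libraries labelled as Müller glial cells, RLBP1 and AQP4 were at or near 0 in both passages (at most 0.03 FPKM on average). AQP4 was low in D150-ROs too, at 0.193 ± 0.0451 FPKM, whereas RLBP1 was at 33.5 ± 3.66 FPKM there. SOX9 was at 5.21 ± 0.252 FPKM in P1 and 3.59 ± 0.164 FPKM in P5, against 4.94 ± 0.639 FPKM in hiPSCs. GLUL was at 13.4 ± 1.18 FPKM in P1 and 14.6 ± 0.720 FPKM in P5, against 77.1 ± 2.55 FPKM in hiPSCs. The summed level of 7 Müller glia markers was 17.6 to 20.5 FPKM in P1 and P5 iMGCs against 231 to 239 FPKM in D150-ROs. A list of 4 mesenchymal markers summed to between 3823 and 4153 FPKM in iMGCs and to between 9.69 and 11.1 FPKM in D150-ROs. In P1 iMGCs COL1A1 was at 2000 ± 53.5 FPKM and TAGLN at 1940 ± 82.4 FPKM, while COL3A1 was at 26.4 ± 2.47 FPKM. PRRX1, also in the list, was at 0.0133 ± 0.0153 FPKM in P1 and 1.75 ± 0.326 FPKM in P5, against 0.0867 ± 0.0902 FPKM in D150-ROs.

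Across development the 9 genes together summed to between 18.6 and 22.4 FPKM in hiPSCs, 162 and 191 FPKM in D70-ROs and 997 and 1068 FPKM in D150-ROs, and then to between 5.25 and 7.07 FPKM in iMGCs. Of all counted fragments, they took 0.503% to 0.554% in D150-ROs and 0.00180% to 0.00236% in iMGCs. All of the 9 but CRB1 were highest in D150-ROs, with no overlap with any other group. CRB1 was highest in D70-ROs. Expression in D150-ROs was led by CDHR1 (246 ± 18.2 FPKM), followed by IMPG2 (212 ± 12.6), PROM1 (142 ± 2.78), RP1 (135 ± 8.13), PRPH2 (107 ± 7.54), ROM1 (66.1 ± 9.81), IMPG1 (64.6 ± 1.71), CRB1 (48.0 ± 1.95) and EYS (20.8 ± 2.64). In this order PROM1 overlapped with RP1, and ROM1 with IMPG1, over the 3 libraries, while every other neighbouring pair was separate. By their mean FPKM, CDHR1 was above 99.1% of all genes in D150-ROs and EYS above 77.8%. In bulk samples a change in the number of photoreceptors and a change in RNA per photoreceptor cannot be told apart.

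**Figure D1:**
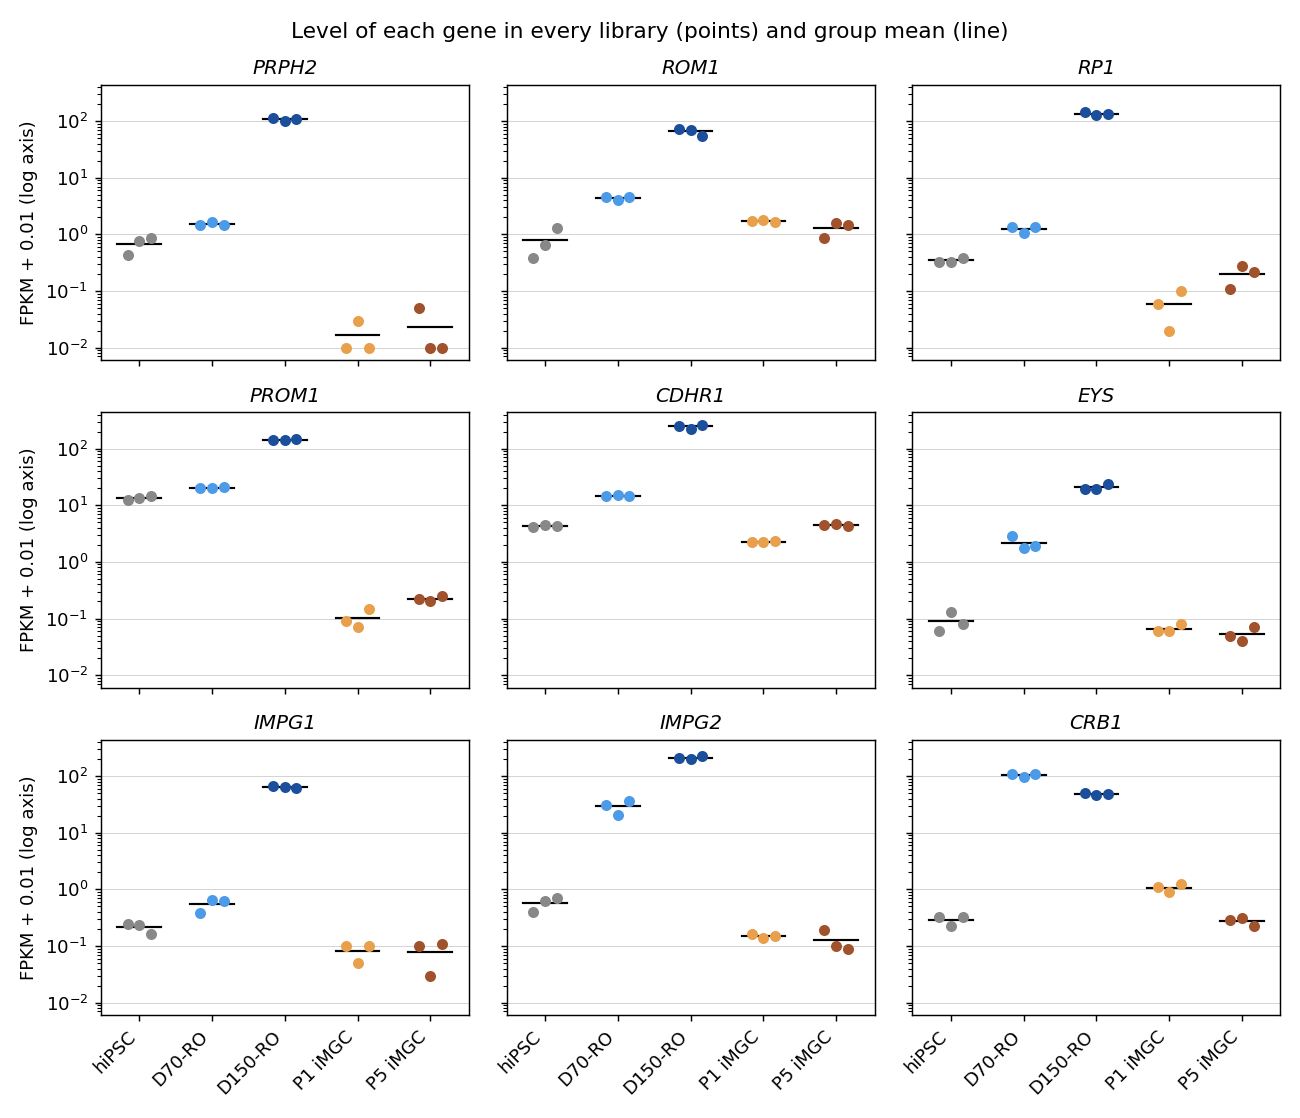
FPKM of each of the 9 genes in every library, on a log axis after adding 0.01, with the groups in order of culture from left to right; points are the 3 libraries of a group and the line is their mean. The highest points are the D150-RO libraries in every panel but that of CRB1, whose D70-RO libraries reach 97.4 to 109 FPKM, and PRPH2 falls to 0 FPKM in 4 of the 6 iMGC libraries.

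The disc rim pair were low until late. PRPH2, on the minus strand of chromosome 6 (chr6:42696600-42722574, GRCh38, GENCODE 29; 3 exons), was listed at 0.430, 0.760 and 0.840 FPKM in the hiPSC libraries, 1.45, 1.66 and 1.43 FPKM in D70-ROs and 114, 99.4 and 109 FPKM in D150-ROs. The groups did not overlap. From D70-ROs to D150-ROs it rose by a log2 fold change of 5.94 ± 0.12 (SE; edgeR quasi-likelihood test, adjusted p = 2.8e-08). Its partner ROM1 lies on chromosome 11 (chr11:62611722-62615120, plus strand) and was at 0.380, 0.640 and 1.30 FPKM in hiPSCs, 4.48, 3.96 and 4.64 FPKM in D70-ROs, and 72.7, 70.8 and 54.8 FPKM in D150-ROs. Its rise between the RO stages was 4.07 ± 0.14 on the log2 scale (edgeR adjusted p = 1.2e-07). The rise of ROM1 became 4.81 once the trend of fold change with transcript length over all genes was removed. At this step the trend was -0.74 for ROM1 and 0.13 for PRPH2 on the log2 scale. The balance between the partners turned over: the ratio of PRPH2 to ROM1 FPKM was 0.324, 0.419 and 0.308 in the D70-RO libraries, and it reached 1.57, 1.40 and 1.98 in those of D150-ROs. These ratios did not overlap (exact two-sided permutation test, p = 0.1, the smallest that 3 against 3 allows). They were taken on FPKM, without removal of the length trend. Exons of EML3, on the opposite strand, cover 24.8% of the exonic bases of ROM1, and whether the counting used strand is not given in the sources used here. EML3 itself was at 6.23 ± 0.185 FPKM in D70-ROs and 15.8 ± 1.59 FPKM in D150-ROs, and its part in the ROM1 counts was not tested.

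RP1, the axonemal protein (chr8:54509422-54871720, plus strand), had levels of 0.320, 0.320 and 0.370 FPKM in hiPSCs, 1.35, 1.06 and 1.35 FPKM in D70-ROs and 144, 128 and 131 FPKM in D150-ROs. The 3 groups were separate, and the D150-RO libraries stood about 2 orders of magnitude over the D70-RO libraries. Its log2 fold change between the RO stages was 6.58 ± 0.12 (edgeR adjusted p = 2.0e-08), which became 5.81 once the trend of fold change with transcript length over all genes was removed.

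The genes of the nascent disc were the ones already present in hiPSCs. PROM1, also known as the stem cell surface antigen CD133 (chr4:15963076-16084378, minus strand), was at 12.4, 13.4 and 14.5 FPKM in hiPSCs, 19.8, 19.9 and 20.7 FPKM in D70-ROs, and 140, 142 and 145 FPKM in D150-ROs. It made up 64.5% to 66.6% of the summed level of the 9 genes in hiPSCs and 13.1% to 14.2% in D150-ROs. Between hiPSCs and D70-ROs the FPKM values of PROM1 did not overlap, yet its counts differed by a log2 fold change of 0.16 ± 0.12 (edgeR adjusted p = 0.26) and it was not called. FPKM also divides by the mean transcript length, estimated for PROM1 at 3971 ± 120.1 bases in hiPSCs and 3247 ± 311.9 bases in D70-ROs. CDHR1, the photoreceptor cadherin (chr10:84194635-84219621, plus strand), was at 4.08, 4.49 and 4.23 FPKM in hiPSCs, 14.8, 14.9 and 14.7 FPKM in D70-ROs, and 251, 226 and 262 FPKM in D150-ROs. All 3 groups were apart, and CDHR1 rose at both steps, by 1.91 ± 0.12 and then by 3.83 ± 0.10 on the log2 scale (edgeR adjusted p = 1.1e-07 and 4.2e-08).

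EYS, the secreted protein near the connecting cilium, spans 1987246 bases of chromosome 6 (chr6:63719980-65707225, minus strand) and was the lowest of the 9 in D150-ROs. Its levels were 0.05, 0.12 and 0.07 FPKM in hiPSCs, 2.81, 1.73 and 1.88 FPKM in D70-ROs and 19.4, 19.1 and 23.8 FPKM in D150-ROs. It rose at both steps, by 3.82 ± 0.32 and then by 3.36 ± 0.16 on the log2 scale (edgeR adjusted p = 9.1e-07 and 4.6e-07).

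The 2 matrix proteoglycans kept different times. IMPG2 (chr3:101222546-101320560, minus strand) was at 0.390, 0.610 and 0.690 FPKM in hiPSCs, already at 31.5, 20.8 and 36.3 FPKM in D70-ROs, and at 212, 200 and 225 FPKM in D150-ROs. The D70-RO library with the lowest value was also the one with the lowest depth. IMPG1 (chr6:75921115-76072678, minus strand) was at 0.240, 0.230 and 0.150 FPKM in hiPSCs, still at 0.370, 0.640 and 0.610 FPKM in D70-ROs, and at 66.0, 65.2 and 62.7 FPKM in D150-ROs. From D70-ROs to D150-ROs IMPG1 rose by 6.98 ± 0.19 on the log2 scale and IMPG2 by 2.63 ± 0.17 (edgeR adjusted p = 4.9e-08 and 2.5e-06). The value for IMPG2, whose single annotated transcript is 8337 bases long, became 1.71 with the length trend removed. Per library, the FPKM of IMPG1 was 0.0117 to 0.0308 of that of IMPG2 in D70-ROs and 0.279 to 0.326 of it in D150-ROs, without overlap (exact two-sided permutation test, p = 0.1, the smallest possible).

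CRB1 went the opposite way to the others from D70-ROs to D150-ROs. It lies on chromosome 1 (chr1:197268204-197478455, plus strand) and was at 0.320, 0.220 and 0.310 FPKM in hiPSCs, 109, 97.4 and 109 FPKM in D70-ROs, and 50.2, 46.4 and 47.5 FPKM in D150-ROs. In D70-ROs it stood above 97.1% of all genes and above the other 8. It rose by 8.36 ± 0.16 on the log2 scale from hiPSCs to D70-ROs and then fell by 1.40 ± 0.08 to D150-ROs (edgeR adjusted p = 1.4e-10 and 1.0e-06), with no overlap between the groups at either step. Of 6 retinal progenitor markers 4 were called lower at the same step, against 16.7% of all genes. The list summed to between 675 and 729 FPKM in D70-ROs and 314 and 369 FPKM in D150-ROs, and PAX6 and ATOH7 fell by 1.31 ± 0.11 and 4.70 ± 0.17 on the log2 scale (edgeR adjusted p = 1.2e-05 and 1.4e-07). SOX2, at 70.3 ± 3.55 and 69.9 ± 6.23 FPKM, and the proliferation marker MKI67, at 4.42 to 10.4 and 4.31 to 6.58 FPKM, were not called. The part of progenitor number in the CRB1 level was not tested.

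Taking the first step as a whole, 7 of the 9 genes were called higher in the D70-RO libraries, where 22.5% of all genes tested were. The FPKM values of all 8 tested did not overlap between the groups, as was true of 75.5% of all genes. IMPG1 was not tested because it did not reach 1 FPKM in 3 libraries, and PROM1 was tested but not called. Only CDHR1 and PROM1 had at least 1 FPKM in all 6 libraries. The other 6 passed the filter through the D70-RO libraries, and passing in this way favours a difference between the groups. The smallest called change was that of PRPH2, at 1.01 ± 0.28 on the log2 scale (edgeR adjusted p = 0.0068). It lay at the 2-fold limit and was no longer called in 8 of the alternative settings, in which its log2 fold change ranged from 0.59 to 1.01. Without hiPSC replicate 1, the lowest of the 3, the change was 0.79, and without D70-RO replicate 2 it was 0.92. For ROM1 the change was 2.88, and 3.60 without hiPSC replicate 3.

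At the second step all 9 genes were called, 8 of them up and CRB1 down with age, where 16.6% of all genes were called higher and 16.7% lower. None of the 9 overlapped between the stages, and neither did 77.2% of all genes. All but IMPG1 had at least 1 FPKM in all 6 libraries. The median log2 fold change of the 9 was 3.83 and that of all 12855 genes tested was -0.01. Photoreceptor identity markers rose too: 11 of the 12 genes listed were tested and all 11 were called higher, with a median log2 fold change of 4.55. Their summed FPKM was 8.36 times as high in D150-ROs as in D70-ROs, and that of the 9 structural genes 5.72 times as high. What share of the rise came with photoreceptor number was not tested. Over the whole course from hiPSCs to D150-ROs, all 9 genes were called higher and without overlap (29.8% and 87.4% of all genes were), from PROM1 at 2.75 to IMPG1 at 8.47 on the log2 scale, with 7 of the 9 passing the filter only through the D150-RO libraries. This comparison shares its libraries with the other two.

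**Figure D2:**
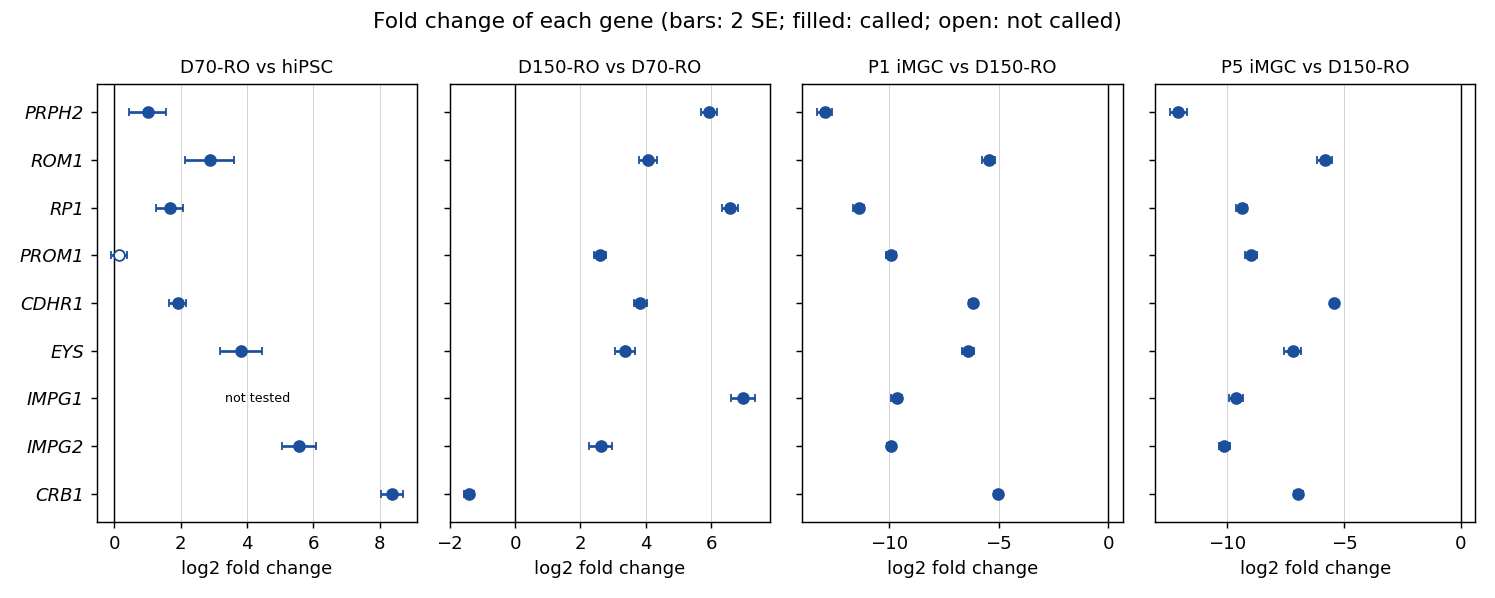
Log2 fold change of each gene in 4 comparisons (edgeR, counts), with bars of 2 SE to either side; filled points were called, the open point was not, and IMPG1 was not tested in D70-ROs against hiPSCs. In D150-ROs against D70-ROs all points lie to the right of 0 except CRB1 at -1.40, and in both iMGC comparisons all lie to the left, PRPH2 farthest at -12.9 in P1 and -12.1 in P5.

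The upstream sequences of the genes were read to see whether genes that rose together had similar promoters. RefSeq windows on GRCh38.p14, from 250 bases before to 50 after each annotated start, were present for 8 of the 9 genes and all but RP1. They were searched on both strands for TAATCC (the core of the site of the photoreceptor factors CRX and OTX2), TGCTGA (the core of the site of the rod factor NRL), TAATTA (a paired-type homeodomain core) and GGGCGG (a GC box). The 250 bases before the start are printed below, 5′ to 3′ on the strand of the gene, for the disc rim pair, for EYS and IMPG2 as examples of genes that were low in hiPSCs and high in D150-ROs, and for CRB1, with matches to these 4 motifs or their reverse complements in capitals.
PRPH2 (chr6:42722598-42722847, minus strand): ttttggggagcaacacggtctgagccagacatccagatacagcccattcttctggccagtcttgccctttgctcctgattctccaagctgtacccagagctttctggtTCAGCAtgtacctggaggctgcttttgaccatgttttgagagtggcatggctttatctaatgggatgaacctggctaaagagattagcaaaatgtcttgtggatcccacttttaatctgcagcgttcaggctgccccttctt
ROM1 (chr11:62613007-62613256, plus strand): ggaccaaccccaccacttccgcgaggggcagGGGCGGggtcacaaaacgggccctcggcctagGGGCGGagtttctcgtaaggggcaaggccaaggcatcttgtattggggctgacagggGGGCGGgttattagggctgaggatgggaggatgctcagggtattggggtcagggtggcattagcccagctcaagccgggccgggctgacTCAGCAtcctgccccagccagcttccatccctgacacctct
EYS (chr6:65707227-65707476, minus strand): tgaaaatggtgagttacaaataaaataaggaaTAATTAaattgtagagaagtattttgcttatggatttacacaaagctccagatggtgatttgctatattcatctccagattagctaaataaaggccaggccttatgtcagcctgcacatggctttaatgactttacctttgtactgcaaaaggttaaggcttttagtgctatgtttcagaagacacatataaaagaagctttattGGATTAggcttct
IMPG2 (chr3:101320576-101320825, minus strand): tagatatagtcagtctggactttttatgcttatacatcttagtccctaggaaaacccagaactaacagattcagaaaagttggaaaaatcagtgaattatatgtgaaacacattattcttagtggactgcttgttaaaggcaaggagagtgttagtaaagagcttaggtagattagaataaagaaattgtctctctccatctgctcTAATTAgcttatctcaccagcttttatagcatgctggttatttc
CRB1 (chr1:197268002-197268251, plus strand): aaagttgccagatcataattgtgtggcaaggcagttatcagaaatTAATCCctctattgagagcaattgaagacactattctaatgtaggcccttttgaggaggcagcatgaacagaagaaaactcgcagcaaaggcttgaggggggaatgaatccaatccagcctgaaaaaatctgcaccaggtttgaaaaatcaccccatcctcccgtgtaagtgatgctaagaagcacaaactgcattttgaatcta

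TGCTGA was found in antisense direction at -142 in PRPH2, at -41 in ROM1 and at -167 in the third of 4 PROM1 windows, and 17.3% of all 35116 windows held it. TAATCC was found in EYS at -13, in CRB1 at -205 and in the most downstream of the PROM1 windows at -112, and 6.36% of all windows held it. TAATTA was found in EYS at -218 and IMPG2 at -44, against 4.84% of all windows. GC boxes were found in ROM1 (3), CDHR1 (2) and 2 of the PROM1 windows, and 44.95% of all windows held one. The IMPG1 window, the second of the EYS windows and the first of the PROM1 windows held no match to any of the 4 motifs. None of the 16 matches overlapped another. The windows differed in base composition: the EYS windows were at 35.3% and 32.0% GC, IMPG2 at 35.3% and CRB1 and IMPG1 at 43.3%, whereas CDHR1 was at 64.0%, ROM1 at 64.7% and the 4 PROM1 windows at 56.3% to 69.0%, the median of all windows being 58.7%. The PRPH2 window was at 51.0%. The windows of PROM1, CDHR1 and ROM1 had the highest GC of these genes, but they were not unusual among all windows. CDHR1 and ROM1 were above 64.0% and 66.8% of all windows, and the 4 PROM1 windows above 44.0% to 77.2%. PROM1, CDHR1 and ROM1 were also the 3 with the highest mean level in hiPSCs, although ROM1 overlapped there with PRPH2. A link between GC content and the level in hiPSCs was not tested. A match in these windows is a description of the letters and was not tested as a binding site.

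In the iMGCs all 9 genes were far lower. All 9 genes were called lower in P1 iMGCs than in D150-ROs, where 24.1% of all genes tested were, and all 9 were called lower in P5 iMGCs, against 23.9%. The values of all 9 were without overlap in both comparisons, as were those of 87.9% and 88.5% of all genes. Except for CDHR1 in both passages and ROM1 in P1, the genes passed the filter only through the D150-RO libraries. The losses ranged in P1 from -5.04 ± 0.08 (CRB1) and in P5 from -5.41 ± 0.08 (CDHR1) on the log2 scale to that of PRPH2. For PRPH2 there were 15408 counts over the 3 D150-RO libraries, 1 count in P1 and 2 in P5, which gave log2 ratios of -14.0 (95% exact interval -19.3 to -11.5, counting error only) and -13.0 (-16.0 to -11.1). Both passages were compared with the same D150-RO libraries. Scaling by total counts, as FPKM does, put the median of all genes at -0.69 and -0.74 on the log2 scale in P1 and P5 against D150-ROs, while the TMM scaling of the fit put it at -0.05 in both, and all 9 genes were lower on either scale. The iMGC counts came from another table than those of hiPSCs and D70-ROs. The study's methods name a single sequencing company for all samples and the series' design text a pair of them, and no source used here says which libraries shared a batch, so a batch cannot be told apart from the culture.

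The levels that remained in iMGCs were uneven. CDHR1 was at 2.20, 2.27 and 2.33 FPKM in P1 and 4.52, 4.57 and 4.36 FPKM in P5, the P5 values overlapping with those of hiPSCs. ROM1 was at 1.68, 1.79 and 1.63 FPKM in P1 and 0.850, 1.60 and 1.47 FPKM in P5. CRB1 was at 1.09, 0.880 and 1.24 FPKM in P1 and 0.28, 0.30 and 0.22 FPKM in P5. The other 6 genes were at most 0.27 FPKM in every iMGC library. PROM1, for example, was at 0.08, 0.06 and 0.14 FPKM in P1 and at 0.21, 0.19 and 0.24 FPKM in P5, far under its 12.4 to 14.5 FPKM in hiPSCs. Of the 12 photoreceptor identity markers, 8 had no count in any P1 library and 6 none in any P5 library, and the summed level of the list was at most 0.920 FPKM in any iMGC library.

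Between the passages only CDHR1 and ROM1 were expressed enough to be tested, and neither was called in the edgeR fit, by DESeq2 or by limma (2.92% of all genes were by edgeR). Neither overlapped between the passages, like 39.5% of all genes. CDHR1 was higher in P5 by 0.79 ± 0.09 on the log2 scale (edgeR adjusted p = 4.1e-07), below the 2-fold limit, and ROM1 differed by -0.35 ± 0.28 (adjusted p = 0.39). At an adjusted p under 0.05 alone, 30.7% of all genes passed, and CDHR1 did while ROM1 did not, the same as at an unadjusted p under 0.05. With no filter on low values, CRB1 was called lower in P5 at -1.90 ± 0.25 (edgeR adjusted p = 3.6e-11) and RP1 higher at 2.04 ± 0.60 (adjusted p = 0.0046). The latter rests on 4, 1 and 6 counts in P1 and 8, 20 and 16 counts in P5. The other 5 genes then had edgeR adjusted p-values from 0.30 to 0.99, and at such counts a difference of a few fold may not be detectable.

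**Figure D3:**
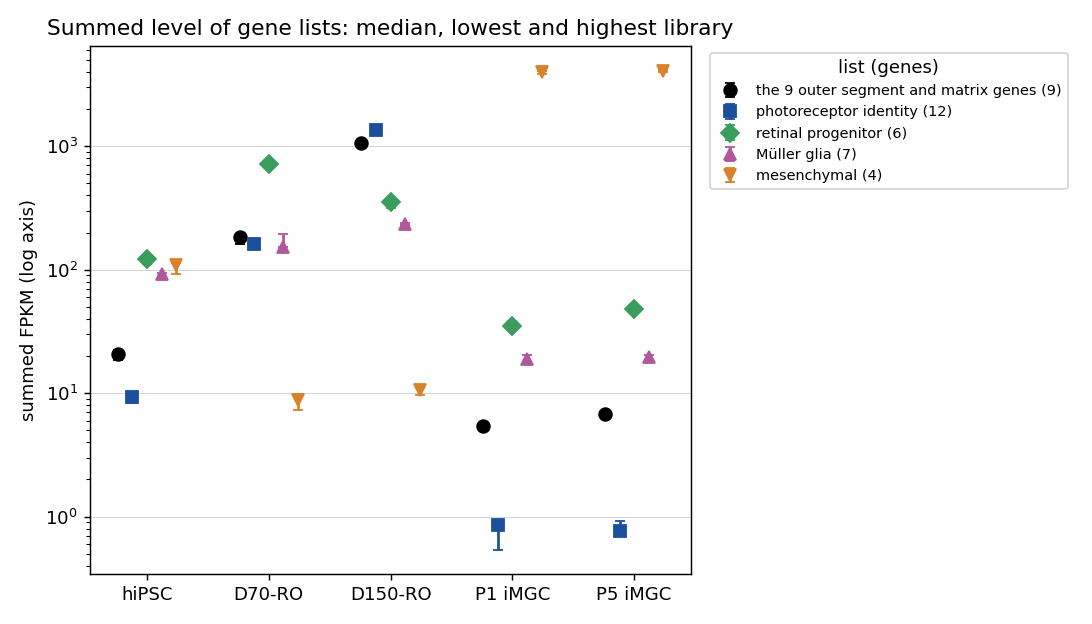
Summed FPKM of the 9 outer segment and matrix genes and of 4 marker lists in each group, on a log axis; symbols are the median of 3 libraries and bars reach to the lowest and highest library. The 9 genes and the photoreceptor identity markers both peak in D150-ROs, at 1061 and 1357 FPKM, and are at 5.39 and 0.850 FPKM in P1 iMGCs, where the mesenchymal markers are at 3993 FPKM.

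Estimated transcript lengths of some of the genes also differed between the groups. Because each table holds both an expected count and an FPKM for each gene, their quotient gives the abundance-weighted mean transcript length in a library. For 427 genes with a single annotated transcript it returned the annotated length within 1% in all cases. PRPH2 and IMPG2, with 1 transcript each, came out at 2976 and 8337 bases in D150-ROs. For such genes this follows from how FPKM is defined. It checks the calculation only, and not how reads were divided among the transcripts of the other genes. The length measure was chosen after the data had been seen, and only libraries with at least 1 FPKM of the gene are given. The mean ROM1 transcript was 1284 ± 91.4 bases in D70-ROs, 1666 ± 18.7 bases in D150-ROs and 942 ± 113.6 bases in P1 iMGCs, the longest annotated form being 1878 bases. The P1 values of ROM1 rest on 27, 24 and 29 counts, and D70-RO replicate 2 held 59 counts of ROM1 and 55 of EYS. The part of the overlapping EML3 exons in the ROM1 lengths was not tested. RP1 went from 6740 ± 17.6 to 7056 ± 3.5 bases and EYS from 2972 ± 283.6 to 3723 ± 126.2 bases between D70-ROs and D150-ROs. The value for EYS stayed far under its longest annotated transcript of 10589 bases. PROM1 was at 3971 ± 120.1 bases in hiPSCs, 3247 ± 311.9 bases in D70-ROs and 3233 ± 169.0 bases in D150-ROs. CDHR1 was at 5079 ± 217.2 and 5059 ± 55.3 bases in the ROs, 4266 ± 123.7 bases in hiPSCs, 4841 ± 126.4 bases in P1 and 4048 ± 215.3 bases in P5 iMGCs, whereas CRB1 overlapped between D70-ROs (4585 ± 65.6) and D150-ROs (4442 ± 159.6). Each of these differences other than that of CRB1 was without overlap except between the RO stages for PROM1 and CDHR1, and for CDHR1 between D70-ROs and P1 and between hiPSCs and P5. With 3 libraries a group, an exact permutation test of the 21 pairs could not go below p = 0.1.

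**Figure D4:**
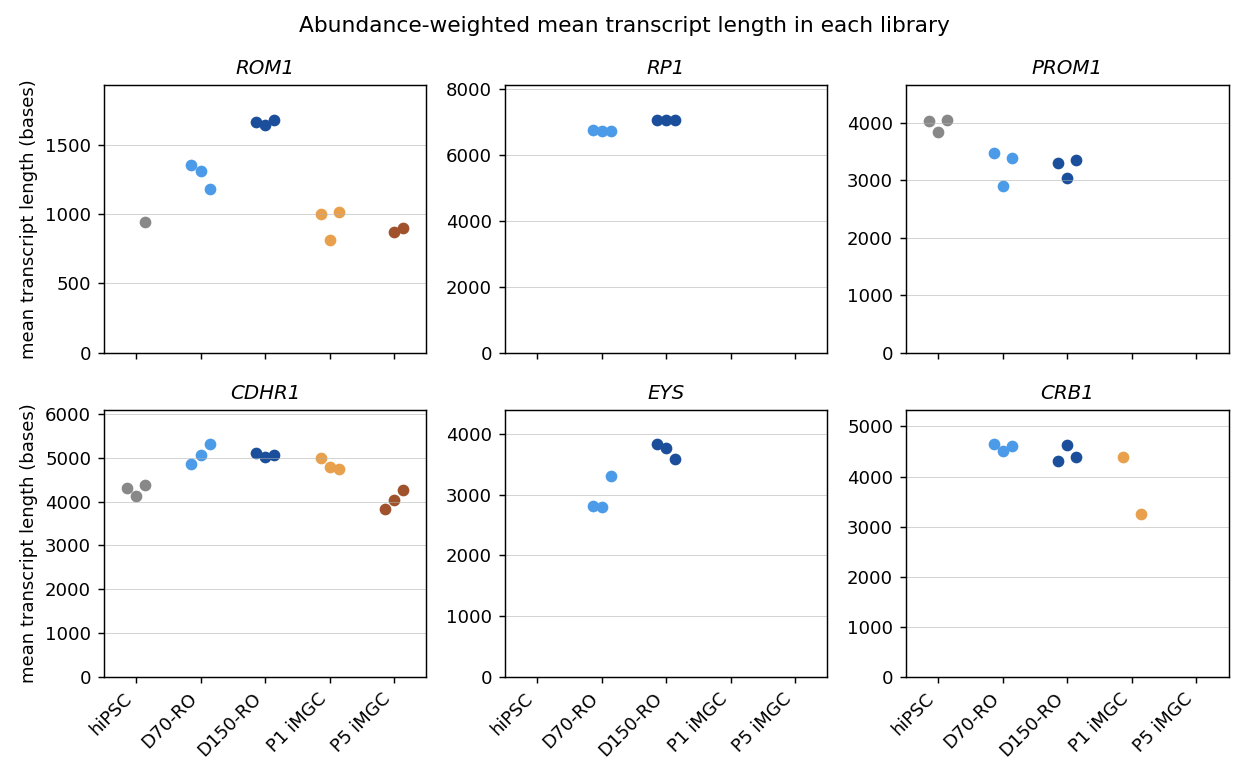
Abundance-weighted mean transcript length, in bases, of 6 genes in each library with at least 1 FPKM of the gene; empty columns are groups in which no library reached it. ROM1 reaches 1646 to 1683 bases in D150-ROs and 811 to 1014 bases in P1 iMGCs, and PROM1 is longest in hiPSCs at 3833 to 4049 bases.

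Other genes of the same structures were read from gene lists. Of 8 further disc and outer segment genes, all tested, 6 were called higher at the later RO stage (16.6% of all genes were), led by the rod channel subunit CNGB1 at 6.05 ± 0.15 and PCARE at 4.61 ± 0.13 on the log2 scale (edgeR adjusted p = 4.2e-08 and 5.1e-08). Of 8 genes of the axoneme and connecting cilium, all tested, 5 were called higher and 1 lower in D150-ROs, against 16.6% and 16.7% of all genes. RPGRIP1 rose by 3.71 ± 0.12, while SPATA7 fell by 1.04 ± 0.12 (edgeR adjusted p = 8.5e-08 and 7.7e-05).

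The matrix list divided. Of 6 further interphotoreceptor matrix genes, 4 were tested in D150-ROs against D70-ROs and 3 were called higher (16.6% of all genes were), with CD44, the hyaluronan receptor, rising by 5.45 ± 0.22 and RBP3, the retinoid carrier of the matrix, by 2.49 ± 0.09 (edgeR adjusted p = 2.3e-07 and 1.4e-07). In P1 iMGCs RBP3 had no count in any library (72.6 ± 5.46 FPKM in D150-ROs), and SERPINF1, a secreted factor of the matrix, fell by 4.89 ± 0.09 on the log2 scale, from 107.5 ± 6.73 to 2.32 ± 0.354 FPKM (edgeR adjusted p = 9.1e-17), but CD44 was still at 68.2 ± 2.89 FPKM against 82.1 ± 6.53 FPKM in D150-ROs. On the TMM-scaled counts its log2 fold change had the other sign, at 0.76 ± 0.05 (edgeR adjusted p = 4.5e-10), under the 2-fold limit. VCAN, the large chondroitin sulphate proteoglycan versican, was higher in iMGCs, at 46.5 ± 1.62 FPKM in P1 and 69.3 ± 0.970 FPKM in P5 against 14.9 ± 0.395 FPKM. HAPLN1, a link protein that joins hyaluronan to proteoglycans, had no count in the ROs and was at 4.12 ± 0.539 and 9.03 ± 1.54 FPKM in P1 and P5. These matrix genes are also used by mesenchymal cells. The mesenchymal markers COL1A1 and TAGLN were high in the same libraries, though PRRX1 was not, and the part of mesenchymal cells was not tested.

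In the Crumbs and PAR polarity list of 15, 4 of the 14 genes tested were called higher and 1 lower at the later RO stage, against 16.6% and 16.7% of all genes. MPP4, a photoreceptor scaffold of this list, rose by 4.89 ± 0.14 (edgeR adjusted p = 5.1e-08) while CRB1 fell. CRB2 was at 14.7 ± 2.31 FPKM in D70-ROs and 10.8 ± 0.459 FPKM in D150-ROs and was not called, its log2 fold change being -0.67 ± 0.11 (edgeR adjusted p = 0.00063). CRB3, the epithelial form, was at 10.99 ± 0.599 FPKM in hiPSCs and at 0.200 ± 0.125 FPKM in D70-ROs.

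Likeness of pattern was measured by Pearson's r of log2(FPKM + 1) over the 15 libraries, among 13915 genes, and is a description, because the 5 groups set most of it. Most like PRPH2 were ABCA7, CNGB1 and CA10, and RP1 was near CNGB1 and NR2E3. IMPG1 was nearest to NR2E3, SAMD7 and IRX6, IMPG2 to RD3, TMEM132E and PLCH2, and EYS to LRIT1, RPGRIP1 and KCNA2. For ROM1 the nearest were PLCD4, LRRTM2 and FAM184B, for PROM1 they were ATP1B2, AP3B2 and SOX8, and for CDHR1 GPR61, ABCG4 and RASGRP1. CRB1 was nearest to BAALC, DLL4 and BHLHE22. All of these r values were between 0.990 and 0.999. Among the 9 themselves, IMPG1 and RP1 were the most alike (r = 0.997) and CRB1 and IMPG1 the least (r = 0.567).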

How the data were processed

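The 9 genes, the gene lists and the tests were chosen with earlier results of these data known. Poly(A) RNA was sequenced in paired ends. The deposited values were RSEM expected counts and FPKM per gene. Per the labels, the authors mapped reads with HISAT2 and used StringTie, RSEM and DESeq2, in versions not given in the sources used here, and the genome build was not given either. All 19684 gene IDs were in GENCODE 29 (GRCh38), whose coordinates are printed. The series' design text mentions a correction of batches on which the files say no more. The D150-RO columns of the tables were alike (FPKM equal, counts within 0.5). A further 6 value columns, of iMGCs with no passage named, were not used, nor were the authors' own fold changes and p-values.

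Expected counts were rounded and fitted with edgeR 4.0.16 (TMM scaling, quasi-likelihood test, R 4.3.3), 2 groups of 3 libraries at a time, over genes with at least 1 FPKM in at least 3 of the 6 libraries. Alternatives were DESeq2 1.42.0, limma 3.58.1 on log2(FPKM + 1) or log2(FPKM + 0.1), upper-quartile scaling, other filters, 1 fit of all 15 libraries, a test against a 2-fold change, removal of the transcript length trend, a replicate block and leaving out each library. On simulated counts with 200 genes changed 4-fold, edgeR recovered 99.0% of them in D70-ROs against hiPSCs (12954 genes) and 99.5% in D150-ROs against D70-ROs (12855 genes). Intervals cover counting error only. Depth was 11349600 to 20398755 counts per library. In lists, the genes named were in each comparison, of those called, at most the 2 that rose most and the 2 that fell most, plus cell type markers. CD44 in iMGCs and CRB2 in D150-ROs were added after their values were seen. RefSeq gave the promoter windows. Some results for genes of the lists are not reported here.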

Additional observations from a re-analysis of the deposited data

How the results depend on the processing

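Of 736 fold changes of single genes refitted under the alternatives, 727 kept their direction and their call, 9 kept their direction and lost their call, and none reversed. The losses were 8 for PRPH2 and 1 for RP1 (0.75 by limma on log2(FPKM + 1)), all in D70-ROs against hiPSCs, where the number of genes called was between 6 and 7 when each library was left out in turn. The other comparisons kept 9, 9, 9, 9 and 0 called genes when a library was left out. Between P5 and P1 iMGCs, 2 genes (CRB1 and RP1) were called with no filter and 1 (CRB1) with a mean FPKM of at least 0.5, because more low genes were tested. Values moved over 1.5-fold in 29 of 46 cases by limma on log2(FPKM + 1) and 8 on log2(FPKM + 0.1). Both added constants understate low genes. On log2(FPKM + 0.1), however, PROM1 in D150-ROs against hiPSCs grew from 2.75 to 3.40. EYS in P1 iMGCs against D150-ROs likewise grew in size, from -6.40 to -7.05. Values also moved in 12 cases with the length trend removed and in 5 when a library was left out. The 5 included ROM1 without hiPSC replicate 3 in both hiPSC comparisons (3.60 and 7.68). PRPH2 was at -15.1 without P1 iMGC replicate 2 and at -15.1 without P5 iMGC replicate 1, which hold its only counts. IMPG1 was at -10.3 without P5 iMGC replicate 1. Fitted folds of PRPH2 in iMGCs depend on the prior count and are no bound. Correlations of same-numbered deviations ranged from -0.074 to 0.351, with no comparison in which every pair was over 0.1. Libraries of different numbers were not compared, so these values cannot decide whether replicate numbers pair the libraries. A replicate block left the number of called genes at 7, 9, 9, 9, 9 and 0.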
